A study of Mus musculus with 2 samples.

Results

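Rpl3, Rpl3l, Eef1a1 and Eef1a2 form 2 pairs of paralogs of the protein synthesis machinery, each with a widely expressed gene and a gene known for striated muscle. They were picked by gene symbol, by a rule with no threshold on a measured value, and are 4 of the 55536 annotated genes in the deposited gene tables. Total RNA-seq libraries of a calf muscle, the gastrocnemius, came from males of the B6Cast F1 cross (strain B6CASTF1/J) at 25 days of age. The labels number 2 different males, but both libraries carry the same donor entry. The libraries were treated as those of separate animals. For each animal 1 library was made from 300 ng of RNA with ERCC spike-ins, synthetic RNAs added in fixed proportions. The labels give 1 group, with no treatment, engineered allele or second age, so each pair was compared within a library and each gene between the animals.

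The ribosomal protein uL3, made from Rpl3 or Rpl3l, sits in the large (60S) ribosomal subunit, with a loop that reaches towards the peptidyl transferase centre. Rpl3 serves most tissues, whereas Rpl3l is known for skeletal muscle and heart. The elongation factor eEF1A carries aminoacyl-tRNA to the ribosome with GTP, and the eEF1B complex reloads it with GTP. Eef1a1 is widely expressed, and Eef1a2 is known to take its place in skeletal muscle, heart and neurons after birth. The mouse wasted mutation, a loss of Eef1a2, leads to muscle wasting and motor neuron degeneration after weaning.

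The coding sequences show how far the members of a pair can be told apart by short reads. Coordinates are those of mm10 with GENCODE M21 annotation, and sequences are from that genome. The first 90 coding bases of Rpl3-201 (chromosome 15, minus strand, 80082496 to 80083326) and Rpl3l-202 (chromosome 17, plus strand, 24727884 to 24728403) span exons 1 and 2 of each gene. Aligned bases that differ between the paralogs, 21 here, are in capitals, 5′ to 3′.
Rpl3: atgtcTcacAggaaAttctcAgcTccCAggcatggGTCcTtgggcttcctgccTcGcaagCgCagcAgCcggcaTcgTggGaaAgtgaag
Rpl3l: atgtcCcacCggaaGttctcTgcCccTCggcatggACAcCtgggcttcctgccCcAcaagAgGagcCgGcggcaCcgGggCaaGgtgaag

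The stretch around the longest identical run of the uL3 pair, 22 bases, covers coding bases 110 to 199 in exons 2 and 3. It holds 23 differing bases, in capitals, and lies at 80081781 to 80082476 on chromosome 15 and 24728423 to 24730871 on chromosome 17, introns included.
Rpl3: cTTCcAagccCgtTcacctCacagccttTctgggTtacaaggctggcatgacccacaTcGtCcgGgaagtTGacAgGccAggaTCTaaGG
Rpl3l: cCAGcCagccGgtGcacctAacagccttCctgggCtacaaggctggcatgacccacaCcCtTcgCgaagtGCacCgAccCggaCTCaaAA

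The first 90 coding bases of Eef1a1-201 (chromosome 9, minus strand, 78480565 to 78480654) and Eef1a2-201 (chromosome 2, minus strand, 181155317 to 181155406) lie in exon 2 of each gene. They differ at 15 bases, in capitals.
Eef1a1: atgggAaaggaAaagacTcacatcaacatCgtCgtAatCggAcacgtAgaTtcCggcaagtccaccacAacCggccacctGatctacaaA
Eef1a2: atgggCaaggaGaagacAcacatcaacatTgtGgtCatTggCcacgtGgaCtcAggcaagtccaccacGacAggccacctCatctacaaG

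The longest identical run of the eEF1A pair, 23 bases, lies within coding bases 270 to 359 in exons 3 and 4 (78480114 to 78480295 on chromosome 9, 181153046 to 181153705 on chromosome 2). This stretch holds 13 differing bases, in capitals.
Eef1a1: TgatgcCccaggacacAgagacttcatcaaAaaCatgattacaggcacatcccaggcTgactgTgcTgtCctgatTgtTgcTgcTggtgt
Eef1a2: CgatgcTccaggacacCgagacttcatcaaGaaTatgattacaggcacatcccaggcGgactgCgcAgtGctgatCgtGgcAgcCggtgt

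Over the whole coding sequence, Rpl3l and Rpl3 were identical at 74.0% of 1210 aligned bases and differed at 314. Eef1a2 and Eef1a1 were identical at 80.1% of 1389 aligned bases and differed at 276. Neither pair shared a run of 31 bases, so each pair is distinct at that length throughout. The paralogs diverged in different ways. Of 227 differing codons in the uL3 pair, 137 kept the residue, and 77.4% of 399 aligned residues were the same. Of 240 differing codons in the eEF1A pair, 204 kept the residue, and 92.2% of 462 aligned residues were the same. Differences fell at the third codon position in 58.7% of cases in the uL3 pair and 81.2% in the eEF1A pair. The muscle member of each pair was the richer in G and C at that position, at 72.3% in Rpl3l against 63.4% in Rpl3, and at 72.6% in Eef1a2 against 51.8% in Eef1a1. The coding sequences have 403 codons in Rpl3, 407 in Rpl3l, 462 in Eef1a1 and 463 in Eef1a2. Both uL3 transcripts have 10 exons and both eEF1A transcripts 8.

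In the 2 animals the muscle paralog held most of the transcripts of each pair. TPM, the deposited share of all transcripts scaled to a fixed total and corrected for length, is the unit of level throughout, and the first quantification is meant unless the second is named. Levels per gene of bulk tissue were measured, so more cells of a type and more RNA per cell cannot be told apart. The order of levels in both animals was Eef1a2, Rpl3l, Eef1a1 and Rpl3, and the values of neighbours in that order did not overlap between the animals. The second quantification gave the same order without overlap. With 2 animals the smallest two-sided p of an exact test is 0.5, so no test across animals was made.

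Rpl3 (ENSMUSG00000060036.14, chromosome 15, 80077791 to 80091868, minus strand) stood at 21.8 TPM in animal 1 and 18.9 TPM in animal 2, or 20.4 ± 2.01 (SD, n = 2). Rpl3l (ENSMUSG00000002500.15, chromosome 17, 24727820 to 24736143, plus strand) stood at 275.3 and 302.8 TPM, or 289.1 ± 19.5 (SD, n = 2). Rpl3l was therefore the abundant uL3 gene in both libraries. The level of Rpl3l over Rpl3 was 12.6-fold in animal 1 and 16.0-fold in animal 2. On the log2 scale these ratios were 3.66 (95% interval 3.54 to 3.78) and 4.00 (3.88 to 4.12), with a mean of 3.83 ± 0.24 (SD, n = 2). These intervals, from the exact binomial, cover counting error only. Rpl3l held 92.7% and 94.1% of the summed TPM of the pair.

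Rpl3 had 575.1 and 562.7 expected counts, against 10087 and 11738 for Rpl3l, so the counting error of the ratio comes mainly from Rpl3. The deposited interval of the Rpl3 level, whose confidence level the files do not state, ran from 18.5 to 24.7 TPM in animal 1 and from 16.0 to 21.8 TPM in animal 2. The second quantification gave 46.5 and 43.6 TPM for Rpl3 and 492.3 and 556.6 TPM for Rpl3l. The ratio there was 10.6-fold and 12.8-fold, 3.54 ± 0.191 on the log2 scale, so the direction was the same and the size smaller. Among 22015 nuclear protein-coding genes, Rpl3l ranked 138 and 137 by level in animals 1 and 2, and Rpl3 ranked 1821 and 2260.

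Eef1a1 (ENSMUSG00000037742.14, chromosome 9, 78478449 to 78489151, minus strand) stood at 207.7 TPM in animal 1 and 191.0 TPM in animal 2, or 199.3 ± 11.8 (SD, n = 2). Eef1a2 (ENSMUSG00000016349.10, chromosome 2, 181147653 to 181157014, minus strand) stood at 739.1 and 843.3 TPM, or 791.2 ± 73.6 (SD, n = 2). Both members were abundant, and Eef1a2 was the higher in both libraries. The level of Eef1a2 over Eef1a1 was 3.56-fold in animal 1 and 4.42-fold in animal 2. On the log2 scale the ratios were 1.83 (95% counting interval 1.80 to 1.87) and 2.14 (2.11 to 2.18), with a mean of 1.99 ± 0.22 (SD, n = 2). Eef1a2 held 78.1% and 81.5% of the summed TPM of the pair.

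Eef1a1 had 8150 and 8296 expected counts and Eef1a2 had 42319 and 51139. The deposited intervals of the Eef1a2 level, 715.6 to 729.4 and 818.1 to 832.6 TPM, lay below its listed levels in both animals. That of Rpl3l in animal 2, 291.3 to 302.4 TPM, also ended below its level. The cause was not tested. The second quantification gave 323.2 and 300.4 TPM for Eef1a1 and 1031 and 1197 TPM for Eef1a2, a ratio of 3.19-fold and 3.99-fold. Eef1a2 ranked 43 and 37 among nuclear protein-coding genes, and Eef1a1 ranked 188 and 238. Eef1a1 thus kept a larger share of its pair than Rpl3 did in both animals.

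**Figure D1:**
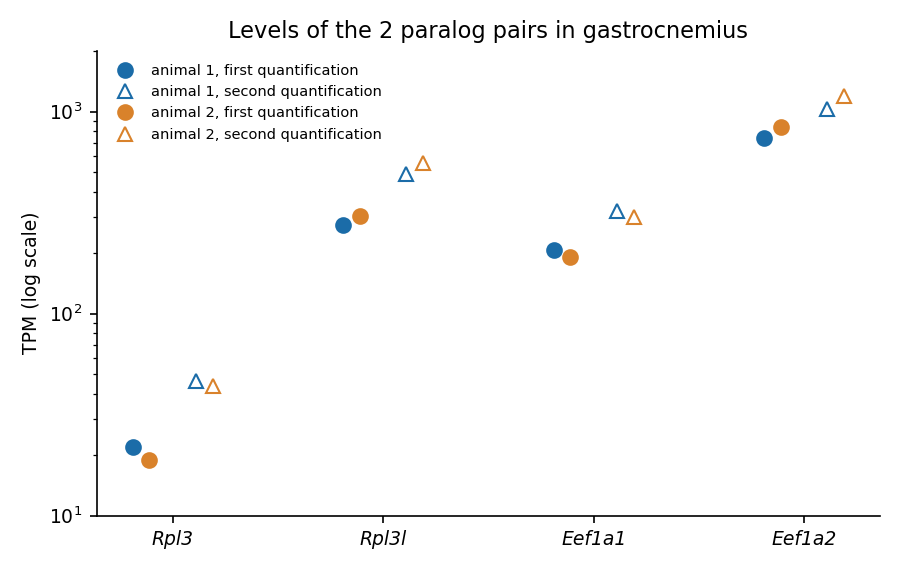
Level (TPM, log scale) of the 4 genes in each animal, with 1 point per library, in the first and second quantification. Eef1a2 is the highest and Rpl3 the lowest in both animals and both quantifications, with Rpl3l above Eef1a1.

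Other gene pairs measured in the same libraries give a scale for these ratios. Of 7 other ribosomal proteins with a paralog, 5 had a ratio in both animals. The paralog was the lower in both animals in 4 of these, with a median log2 ratio of -2.09 over the 5. Rpl36al over Rpl36a was the exception at 1.41, and Rps4l over Rps4x was the lowest at -7.70. Rpl10l had 0 counts in both animals, which allows up to 0.0859 and 0.0806 CPM (3 counts as a rate over the counts of annotated genes), and Rpl39l had 0 and 3 counts. The log2 ratio of Rpl3l over Rpl3 was above those of all 5 pairs in both quantifications. Rpl3l is known for muscle and the other ribosomal pairs were not picked for a muscle form, so this order is not a result. It is a description of a few pairs and was not tested.

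The 12 pairs of muscle isozymes, mostly of metabolic enzymes, set a form known for muscle against a related form. These pairs had the muscle form higher in both animals in 12 of 12. Their median log2 ratio was 6.82, from 1.43 for the cytochrome oxidase subunits Cox7a1 over Cox7a2 to 13.78 for the aldolases Aldoa over Aldoc. Aldoc had only 18 and 34 counts, so the upper end rests on few reads. The Rpl3l and Eef1a2 ratios each lay above 1 of the 12, Cox7a1 over Cox7a2, in both quantifications. The second named gene thus held a larger share of its pair in both translation pairs than in 11 of the 12 isozyme pairs. These pairs were chosen with the muscle form known, so their direction is not a result.

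**Figure D2:**
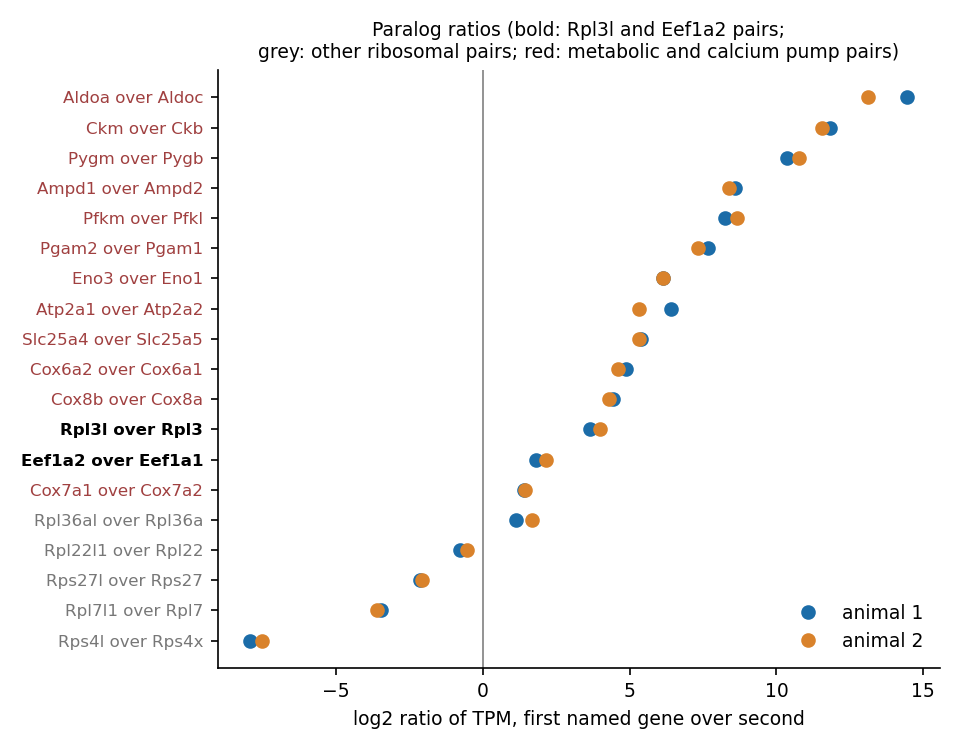
Log2 ratio of TPM (first named gene over second) in each animal for the uL3 and eEF1A pairs, 5 other ribosomal paralog pairs and 12 muscle isozyme pairs. Rpl3l over Rpl3 (mean 3.83) and Eef1a2 over Eef1a1 (1.99) lie above the 5 ribosomal pairs and, apart from Cox7a1 over Cox7a2, below the isozyme pairs.

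Most 60S proteins are present once in each subunit, and the other 46 genes for them are a reference for the uL3 pair. Their median level was 151.6 TPM in animal 1 and 166.9 TPM in animal 2. The summed level of Rpl3 and Rpl3l, 297.1 and 321.8 TPM, was 1.96 and 1.93 times that median. Rpl3l alone was at 1.82 and 1.81 times the median, and 4 of the 46 genes were above it in each animal. In the second quantification the sum was 2.08 and 2.19 times the median, and 2 of the 46 were above Rpl3l. Rpl3l shared 0 runs of 31 bases with other genes, and the 46 genes were taken without any pseudogenes of theirs. Whether reads assigned to pseudogenes lower the median, and so raise these ratios, was not tested.

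Rpl3 lay at the other end of the same list. The median of the 46 genes was 6.96 and 8.81 times the level of Rpl3 in animals 1 and 2. In animal 1 Rpl5, which binds the 5S ribosomal RNA, was the only 60S gene below Rpl3. In animal 2 Rpl5 and Rpl27 were below it. The second quantification placed 0 of the 46 below Rpl3 in either animal, with the median at 5.58 and 6.30 times its level. Rpl5 stood at 14.0 TPM (mean of 2 animals) in the first quantification and 110.5 TPM in the second, so the lowest ranks depend on the quantification. The highest 60S gene in the first quantification was Rplp1, an acidic stalk protein gene, at 424.4 and 455.3 TPM.

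**Figure D3:**
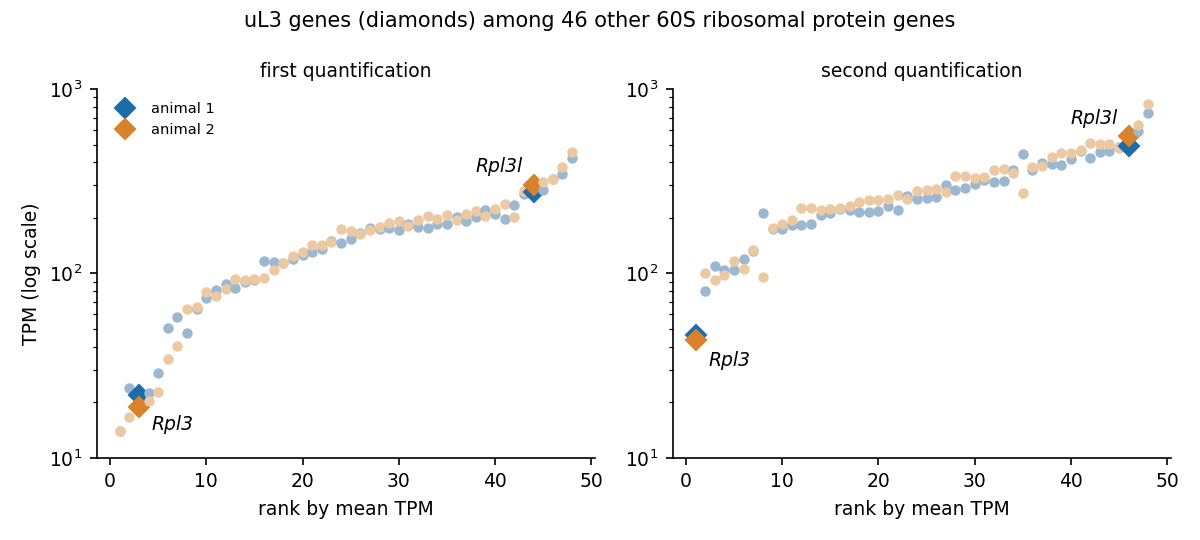
Level (TPM, log scale) of the 46 other 60S protein genes (circles) and of Rpl3 and Rpl3l (diamonds) against their rank by mean TPM, coloured by animal, in the first and second quantification. Rpl3l lies near the top of the 60S genes and Rpl3 near or below the lowest of them.

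The partners of eEF1A were all expressed, at lower levels than Eef1a2. Eef2, the translocation factor that follows eEF1A in the elongation cycle, had 321.8 and 336.9 TPM. The summed level of Eef1a1 and Eef1a2 was 2.94 and 3.07 times that of Eef2. Eef1a2 alone was at 2.30 and 2.50 times Eef2, whereas Eef1a1 alone was at 0.645 and 0.567 times. Of the exchange factor subunits, the catalytic Eef1b2 had 110.3 and 112.8 TPM. The other catalytic subunit, Eef1d, had 79.8 and 83.8 TPM, and the structural subunit Eef1g had 171.5 and 181.4 TPM. The eEF1A sum was 8.59 and 9.16 times Eef1b2 and 5.52 and 5.70 times Eef1g. In the second quantification it was 7.26 and 6.91 times Eef1b2 and 5.59 and 5.03 times Eef1g. The order of the animals in these ratios thus turned with the quantification.

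The list of eEF1B subunits and partners adds Eef1e1 and Vars, which are not subunits. All 5 genes were at 1 TPM or more in both animals, with a median of 81.8 ± 2.83 TPM (SD, n = 2). Eef1e1 was the lowest at 4.77. Of 7 other genes for elongation and termination factors and related proteins (Eef2k and Hbs1l), 6 were at 1 TPM or more in both animals. Eif5a2, a paralog of the elongation factor gene Eif5a, was the lowest at 0.18 and 0.31 TPM. Of 7 genes for modifying enzymes of eEF1A and uL3 and for the uL3 chaperone, 5 were at 1 TPM or more in both animals, with a median of 2.37 ± 0.262 TPM. The chaperone gene Grwd1 had 5.25 and 5.66 TPM. The lysine methyltransferase gene Eef1akmt1 was the highest of the 7, at 8.88 and 9.47 TPM, and Eef1akmt3 the lowest, at 0.05 and 0.06 TPM. The eEF1A sum was 3.19 and 3.21 times the uL3 sum in animals 1 and 2, and 2.51 and 2.50 times in the second quantification.

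The widely expressed genes have many processed pseudogenes, gene copies made from their messenger RNAs, and the muscle genes have none that share a long run. Runs of 31 bases were compared between annotated transcripts, on either strand. Of 1321 such runs in Rpl3-201, 1157 (87.6%) also occurred in another gene. Rpl3 shared runs with 34 genes, of which 33 were pseudogenes. For Eef1a1-201 the count was 1319 of 1764 (74.8%), shared with 28 genes, of which 22 were pseudogenes. For Rpl3l it was 0 of 1345 in Rpl3l-202, and for Eef1a2 0 of 2054.

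Rpl3-ps1 (chromosome X, 13202571 to 13203780), which shares 1118 of its 1180 runs, was the only Rpl3 pseudogene at 1 TPM or more in the first quantification. It was listed at 14.3 and 13.7 TPM in animals 1 and 2, and at 19.6 and 18.4 TPM in the second quantification. Reads of Rpl3 and Rpl3-ps1 can be split between them in ways these tables do not show, so both levels are uncertain. With the levels of the 33 pseudogenes added, Rpl3 came to 36.1 and 32.7 TPM, and the log2 ratio of Rpl3l over it to 3.07 ± 0.198 (SD, n = 2). Rpl3l was still the higher in both animals. With that sum, 4 of the 46 other 60S genes were below Rpl3 in each animal in the first quantification, and 0 in the second. Pseudogene levels were added to Rpl3 alone and not to the 46 genes, so the sides of this comparison were treated differently.

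The 22 pseudogenes of Eef1a1 summed to 8.67 and 9.61 TPM. Gm6548 had 3.47 and 4.55 TPM, AC133509.1 had 3.25 and 2.85 TPM, and Gm13456 had 1.53 and 1.12 TPM. AC122119.2 was listed at 0 in the first quantification and at 0.95 and 1.13 TPM in the second. Adding all of them moved the log2 ratio of Eef1a2 over Eef1a1 from 1.99 to 1.92. The antisense gene Syngr1 overlaps the far 5′ end of Rpl3 and had 13.0 and 13.5 TPM. Whether counting used strand is not given in the sources used here.

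The quantifications gave different transcripts of the same genes. Eef1a2 has a single annotated transcript. Rpl3l-202, the full-length form, held 98.7% and 98.5% of Rpl3l in animals 1 and 2 in the first quantification, and 54.8% and 57.6% in the second. In the second, Rpl3l-201, which starts inside the gene at 24732685, held 20.6% ± 3.06 (SD, n = 2) and Rpl3l-203, a model with an incomplete end, 23.2% ± 1.08. These forms held 1.05% and 0.375% in the first. The difference between quantifications was many times the spread between animals.

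Rpl3-201, the complete coding form, held 53.6% and 62.0% of Rpl3 in animals 1 and 2, but 29.8% and 31.8% in the second quantification. The short form Rpl3-207, whose model lacks the start, held 31.5% ± 2.95 and 33.3% ± 0.573 in the first and second. Rpl3-202, whose model lacks the end, was listed at 0 in the first and held 29.2% ± 1.92 in the second. Forms not annotated as coding, Rpl3-203, Rpl3-204, Rpl3-205 and Rpl3-206, together held 10.7% ± 2.98 of Rpl3 in the first and 6.74% ± 2.70 in the second. Rpl3-205, a target of nonsense-mediated decay by annotation, was the highest of these at 6.07%. The other 3 retain introns.

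Eef1a1-201 held 67.8% and 74.8% of Eef1a1 in animals 1 and 2, and 49.4% and 55.7% in the second quantification. Eef1a1-208, whose model lacks the end, held 16.5% ± 3.49 in the first and 46.6% ± 4.71 in the second. By the first quantification, Eef1a1-207 held 11.6% in animal 1 and was at 0 in animal 2. The second listed it at 0 in both. Eef1a1-204 held 4.71% and 0.201%, and the other 4 transcripts were each under 1%. Eef1a1-201 was the highest transcript of its gene in 3 of the 4 libraries and quantifications, and Eef1a1-208 was level with it in the fourth (animal 1, second quantification, 49.9%).

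**Figure D4:**
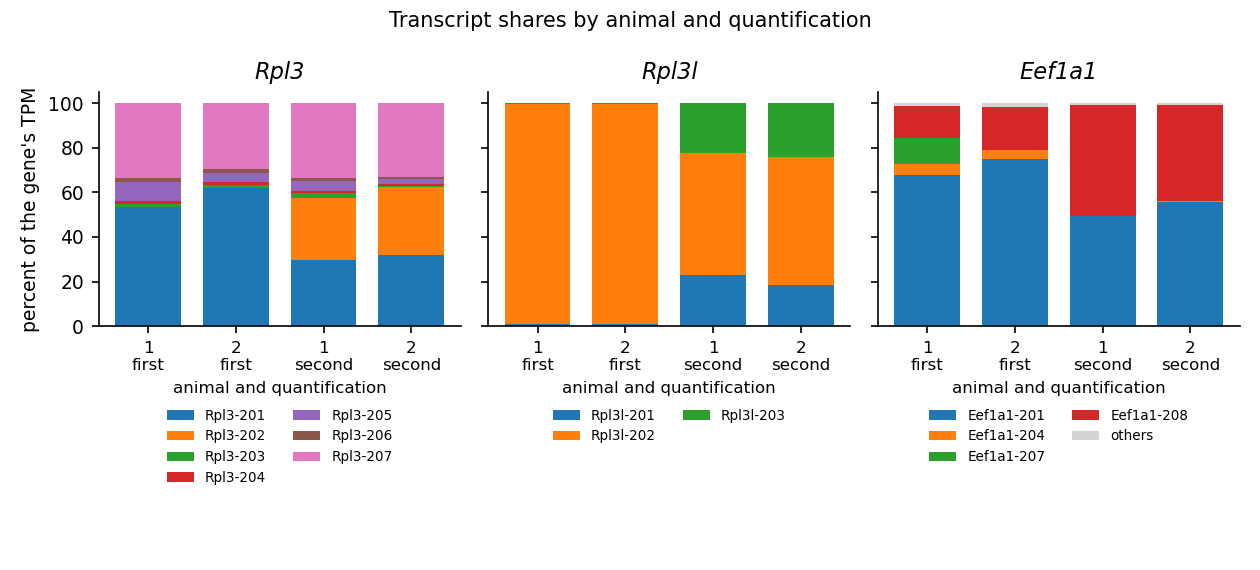
Share of each gene's TPM (percent) taken by its transcripts in animals 1 and 2, in the first and second quantification, as stacked bars. Bars of the same quantification resemble each other, and Rpl3l-202 is at 98.6% in the first and 56.2% in the second. Eef1a2, with 1 transcript, is not drawn.

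The sequence before Rpl3l is shown since the second quantification places part of the gene at an internal start. RefSeq (GRCm38.p6) has 2 windows for Rpl3l, each the 250 bases before a start, one for each of these starts. The first, chr17:24727576-24727825 on the plus strand, holds CAGCTG, an E-box core bound by myogenic factors, 14 bases before the start. Its last 6 bases lie in exon 1 of the GENCODE model. The second, chr17:24732435-24732684, holds a MEF2 site 113 bases before the internal start, and its first 37 bases lie in exon 4 of Rpl3l-202. Matches are in capitals.
Rpl3l first start: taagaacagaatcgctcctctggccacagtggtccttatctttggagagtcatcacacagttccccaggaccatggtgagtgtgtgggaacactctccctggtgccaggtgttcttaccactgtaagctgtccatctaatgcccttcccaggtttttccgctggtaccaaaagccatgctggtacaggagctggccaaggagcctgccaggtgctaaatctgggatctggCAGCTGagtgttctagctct
Rpl3l internal start: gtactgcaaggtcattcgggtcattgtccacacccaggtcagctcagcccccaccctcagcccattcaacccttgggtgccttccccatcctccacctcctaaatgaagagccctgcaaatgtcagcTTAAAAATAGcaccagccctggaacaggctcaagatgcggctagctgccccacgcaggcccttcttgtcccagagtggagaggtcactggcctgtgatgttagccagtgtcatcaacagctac

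Windows of 250 bases before the start were searched on both strands for CAGCTG, the MEF2 site, the CArG box and TATAAA, chosen after the windows were seen. Over 32851 such windows, 13.0% held CAGCTG, 2.92% a MEF2 site, 1.47% a CArG box and 12.4% TATAAA. Of the 4 members, 3 had windows, 4 in all. The Eef1a1 and Eef1a2 windows held none of these letters. A match is a description of letters and not of binding.

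Both pair ratios were higher in animal 2, by 0.339 for Rpl3l over Rpl3 and by 0.311 for Eef1a2 over Eef1a1 on the log2 scale of TPM. In each pair the counting intervals of the animals did not overlap. They take the effective length, by which TPM divides counts, as fixed. That length was 915.6 and 972.6 bases for Rpl3 and 1361 and 1422 for Eef1a1 in animals 1 and 2. It was 1270 and 1269 for Rpl3l and 1985 in both animals for Eef1a2. Part of each difference thus lay in length and not in counts. The second quantification gave the same direction of the pair ratios, with differences of 0.271 and 0.322. Of the 12 isozyme pairs, 3 were higher and 9 lower in animal 2, from -1.32 to 0.43. The -1.32 was that of Aldoa over Aldoc, where Aldoc had only 18 and 34 counts. Of the 5 ribosomal pairs, 4 were higher. By TPM the widely expressed member was lower and the muscle member higher in animal 2 in both pairs.

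Counts scaled between libraries by TMM (trimmed mean of M values) gave log2 ratios of animal 2 over animal 1 for each gene. The ratio was -0.233 for Rpl3 (95% counting interval -0.403 to -0.063) and -0.177 for Eef1a1 (-0.221 to -0.132). It was 0.016 for Rpl3l (-0.022 to 0.055) and 0.071 for Eef1a2 (0.052 to 0.089). With TMM the intervals of Rpl3, Eef1a1 and Eef1a2 exclude 0 and that of Rpl3l includes it, counting error alone being covered. Those of Eef1a1 and Eef1a2 also exclude 0 with DESeq2 size factors, spike-in totals and total counts. That of Rpl3 includes 0 with total counts (-0.293 to 0.047), and that of Rpl3l excludes it with spike-in totals (0.009 to 0.086) and total counts (0.088 to 0.165). All these intervals leave out the uncertainty of assigning reads to genes. The deposited SD of the count was 37.21 and 38.45 for Rpl3 in animals 1 and 2, on 575 and 563 counts. It was 7 and 6.47 for Eef1a1, and 0 for Rpl3l and Eef1a2. The deposited intervals of the Rpl3 level, 18.5 to 24.7 and 16.0 to 21.8 TPM, overlapped between the animals. The sign of each gene's ratio was the same under every scaling run. None of the 4 was over 2-fold apart, against 3.23% of 14754 genes whose counts in both libraries came to at least 20, and 0.506% of 3756 nuclear protein-coding genes at a mean of 10 TPM or more.

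Among genes within 2-fold of its mean level, 11.4% of 2694 lay farther from 0 than Rpl3 and 15.1% of 345 farther than Eef1a1. The figures were 45.3% of 75 for Eef1a2 and 89.2% of 250 for Rpl3l. The differences of the widely expressed members were thus in the outer part of the spread of like genes, but not outside it. Of the 46 other 60S genes, 33 were lower and 13 higher in animal 2, with a median of -0.087, against 1854 lower and 1902 higher of the 3756 genes with a median of 0.002. By TPM, where the median of those genes was 0.123, 18 of the 46 were lower and 28 higher, so the direction of this list turned with the scaling. The list of eEF1B subunits and partners had a median of -0.016 over its 5 genes.

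**Figure D5:**
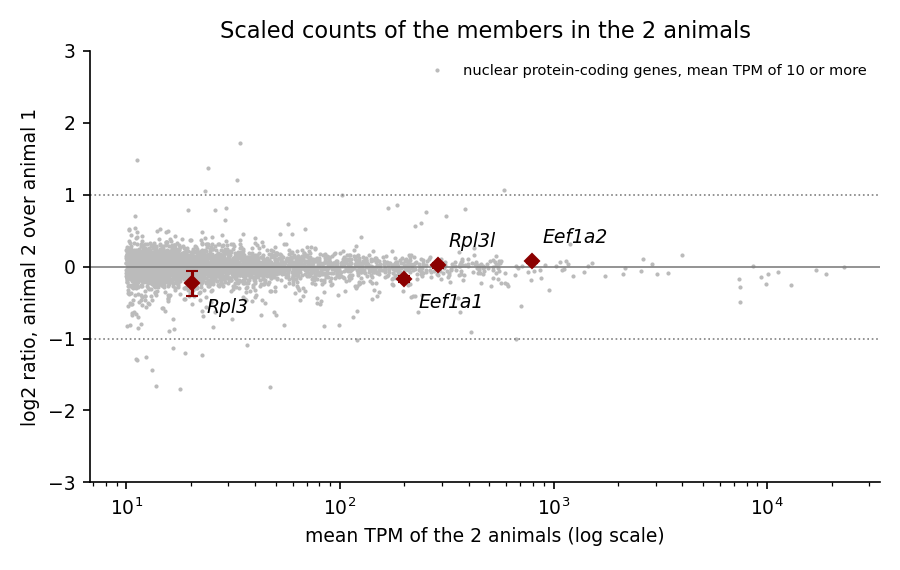
Log2 ratio of TMM-scaled counts (animal 2 over animal 1) against the mean level (TPM, log scale) for nuclear protein-coding genes (grey) and the 4 genes, with 95% counting intervals. Rpl3 (-0.233) and Eef1a1 (-0.177) lie below 0 and Rpl3l (0.016) and Eef1a2 (0.071) above it, all within the 2-fold lines.

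The markers of the tissue and of other cell types were read in the same libraries. All 10 muscle fibre markers were at 1 TPM or more, with medians of 10601 and 10488 TPM. Of the 10, 9 were lower in animal 2 by scaled counts but 4 by TPM. No list here was made to tell fibre types apart, and the fibre make-up of the animals was not compared. The pump gene Atp2a2, the partner of Atp2a1 among the isozyme pairs, had 115.7 TPM in animal 1 and 219.3 TPM in animal 2. The log2 ratio of Atp2a1 over Atp2a2 was 6.41 and 5.33. Neurons, in which Eef1a2 is also known, gave 0 of 7 markers at 1 TPM or more in both animals, and the 7 summed to 1.37 and 1.90 TPM. Of 6 cardiac markers, Nppa and Myl7 were at 0 in both animals, and 2, Myh6 and Myl4, were at 1 TPM or more. The cardiac list summed to 60.9 and 81.9 TPM, nearly all of it Myh6, at 58.5 and 78.2 TPM (26.8 and 33.9 in the second quantification), and the 3 counted members were higher in animal 2. Schwann cell markers summed to 53.5 TPM in animal 1 and 108.5 TPM in animal 2, higher in 5 of 5. Fibroblast markers summed to 1235 and 831.5 TPM, lower in animal 2 in 5 of 5 by scaled counts and 3 of 5 by TPM. Col1a1, at 864.0 and 469.1 TPM, made most of that difference, while Col3a1 was at 228.8 and 229.2 TPM. Endothelial markers summed to 33.0 and 41.9 TPM, macrophage markers to 17.3 and 15.8 TPM and satellite cell markers to 10.9 and 12.5 TPM. The part of these cell types, and of fibre types, in the difference of the pair ratios between the animals was not tested.

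The libraries held 35098487 (animal 1) and 37428588 (animal 2) expected counts. Nuclear protein-coding genes held 38.9% and 40.6% of all TPM, so every level here is a share of a total in which other RNAs take most. The ratio within a pair does not depend on that share.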

How the data were processed

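Total RNA-seq was measured in 2 gastrocnemius libraries of 1 group. The authors deposited expected counts, which need not be whole, and TPM per gene and transcript, with the transcript's percent of its gene and interval bounds of TPM (the upper bound is the upper end of the TPM signal's interval, with no fixed total), in columns as RSEM writes them, per the file headers. A second deposited table, in columns as kallisto writes them, holds estimated counts and TPM per transcript, per the file headers; it was summed to genes here. The deposited descriptions name mm10 and GENCODE M21. Neither tool versions nor a strand setting is given in the sources used here, and alleles of the cross were not separated. Replicates are numbered as different males in the labels but carry the same donor entry. They were treated as separate animals, and the spread may not be that of separate animals.

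Pair ratios are log2 ratios of deposited TPM. Between animals, expected counts were rounded, scaled by TMM (edgeR 4.0.16, R 4.3.3) and compared over genes with at least 20 counts in the libraries together, with a prior count of 0.5. Intervals (exact binomial, 95%) cover counting error only. DESeq2 1.42.0 gave alternative size factors. Coding sequences of the longest coding transcript of each gene were aligned with Biopython 1.88. Of the gene entries, spike-ins, phiX and number-named entries were left out of tests, the last holding 1 count in each library.

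The text names the 4 genes, transcripts at 1% or more of their gene, pseudogenes at 1 TPM or more, the highest and lowest list members, direct partners of the proteins, and pairs at the ends of the range. The genes, pairs and lists were chosen with earlier results of these data known. Rpl27, Rpl10l, Rpl39l, Col3a1, Atp2a2 and the sequence motifs were named after their values were seen.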

Additional observations from a re-analysis of the deposited data

How the results depend on the processing

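No paired analysis was possible because the labels give 1 group. Directions of both pair ratios and signs of all 4 ratios between animals held under every alternative run. Leaving out each animal gave 3.66 to 4.00 for Rpl3l over Rpl3 and 1.83 to 2.14 for Eef1a2 over Eef1a1 (log2). The log2 ratio of Rpl3l over Rpl3 was 3.54 in the second quantification, 3.07 with pseudogenes named for Rpl3 added, 3.07 with all pseudogenes sharing a run, and 3.03 with these in the second quantification. The last 2, chosen after seeing the data, gave 1.92 and 1.79 for Eef1a2 over Eef1a1; no pseudogene carries a name built on Eef1a1, so the named alternative was not run for it.

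Levels depend on the denominator. In the second quantification they were 45.0 TPM for Rpl3, 524.5 for Rpl3l, 311.8 for Eef1a1 and 1114 for Eef1a2. Rescaled to nuclear protein-coding genes they were 51.4, 727.2, 502.4 and 1990. Rpl3 was at 34.3 TPM with its named pseudogenes, 34.4 with all, and 64.4 with all in the second quantification, where Eef1a1 with its pseudogenes was at 321.9. The longest coding transcripts held, in the second quantification, 30.8% (Rpl3-201), 56.2% (Rpl3l-202) and 52.6% (Eef1a1-201) of their genes; the cause was not tested.

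Between animals, log2 ratios of TPM were 0.138 for Rpl3l, -0.121 for Eef1a1 and 0.19 for Eef1a2, where the median of genes at 10 TPM or more was 0.123. Scaled by total expected counts they were 0.126, -0.067 and 0.181, with that median at 0.112, and Rpl3 was at -0.123. Spike-in totals gave 0.102 for Eef1a2 and 0.048 for Rpl3l. Genes over 2-fold apart numbered 476, or 5570 with no filter on low counts. The depth of Rpl3, 575.1 and 562.7 counts, sets most of the counting error of its pair ratio, and the pseudogenes and the quantification moved that ratio by more than that error.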
